A study of Homo sapiens with 4 samples.

Results

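The genes described here encode red cell surface proteins that carry blood group antigens, in human K562 cells before and after hemin. The members were chosen by name, as RHAG, RHD, RHCE, KEL, XK, ERMAP, ICAM4, BCAM, GYPC and GYPE, and each was represented by its probe set with the highest mean. Of these 10 genes, 8 had a named probe set among the 20893 transcript probe sets tested, and each of the 8 had exactly 1. GYPC and GYPE were not matched by symbol, gene ID or transcript accession, and are not analysed here. K562 is a chronic myeloid leukemia cell line that makes embryonic and fetal globins, and hemin, the ferric form of heme, pushes it along the erythroid lineage. The control arrays held RNA of K562 cells with no hemin (0 h) and the treated arrays RNA of the same line after 24 h in 50 µM hemin, with 2 arrays labelled as biological replicates in each group. A culture kept for 24 h without hemin was not among the arrays used here, so an effect of hemin and an effect of time in culture cannot be told apart. Nothing in the sources used here says how the replicate cultures were kept apart, so the spread behind each p-value is that among these arrays and may be technical.

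Red cells carry their protein blood group antigens on a small set of membrane complexes. RhAG, a channel for ammonia, holds the polytopic Rh proteins RhD and RhCE at the surface, together with the immunoglobulin-like protein ICAM4, which carries the LW antigens. Kell, a zinc endopeptidase encoded by KEL, is joined by a disulfide bond to XK, a membrane protein that works with the lipid transfer protein VPS13A. ERMAP, a butyrophilin-like protein, carries the Scianna antigens, and BCAM, a laminin receptor, the Lutheran antigens. Glycophorin C, encoded by GYPC, anchors the membrane skeleton, and GYPE encodes another member of the glycophorins. Several of these genes are known targets of GATA1, the erythroid transcription factor that binds the letters GATA.

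The upstream sequences of some members are shown because GATA letters near the start are known from erythroid genes, and because RHD and RHCE are close copies. They are the 150 bases before an annotated start site in NCBI RefSeq (GRCh38.p14), printed from 5′ to 3′ on the strand of the gene, and 9 of the 10 members had an entry. Capitals mark GATAA or, for the other strand, TTATC; in RHD the lone capitals also mark the bases that differ in RHCE.
RHD, first start site, chr1:25272336-25272485, strand +: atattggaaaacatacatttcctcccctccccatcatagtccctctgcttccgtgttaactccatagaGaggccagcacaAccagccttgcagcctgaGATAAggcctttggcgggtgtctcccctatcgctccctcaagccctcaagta
RHAG, chr6:49636840-49636989, strand -: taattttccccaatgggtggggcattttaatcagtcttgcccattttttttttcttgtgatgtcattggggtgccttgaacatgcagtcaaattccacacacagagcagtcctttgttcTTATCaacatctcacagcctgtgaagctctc
KEL, chr7:142962364-142962513, strand -: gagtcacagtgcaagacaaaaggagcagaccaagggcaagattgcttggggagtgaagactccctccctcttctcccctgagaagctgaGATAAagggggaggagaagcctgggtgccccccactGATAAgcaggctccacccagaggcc
ERMAP, first start site, chr1:42816972-42817121, strand +: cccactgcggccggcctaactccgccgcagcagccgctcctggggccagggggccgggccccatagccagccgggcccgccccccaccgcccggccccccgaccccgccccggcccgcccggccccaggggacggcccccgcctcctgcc
ERMAP, second start site, chr1:42825411-42825560, strand +: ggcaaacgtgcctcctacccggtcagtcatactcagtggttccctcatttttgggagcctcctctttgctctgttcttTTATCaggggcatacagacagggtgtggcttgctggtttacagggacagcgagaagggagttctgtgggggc
Counted from 1 at the 5′ end of the printed run, RHCE differed from RHD by G69C and A81G and was identical at the other 148 positions. In RHD these bases lie before the annotated starts, but in RHCE they lie after its first annotated start and may be transcribed. The transcripts of RHD and RHCE are known to be near-identical and may share probes. No probe sequences were used here, so neither value belongs to its gene with certainty. The motif GATAA was found on either strand in 7 of the 13 start-site windows of the members, from 6 of 9 genes, against 12.2% of the 35116 windows of the same length in the table. No match was found in the windows of GYPC, ICAM4 and BCAM, which are not printed. Windows of 1 gene overlap in RHD, RHCE and BCAM. The windows of RHD share the same match, and the match in RHCE lies in the same copied stretch, so these are not independent. In KEL the motif began at positions -61 and -25 from the start, in RHD at -52, in RHAG at -31 and at the second start of ERMAP at -72. The first ERMAP window held none in 150 bases, of which 86.0% were G or C.

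**Figure D1:**
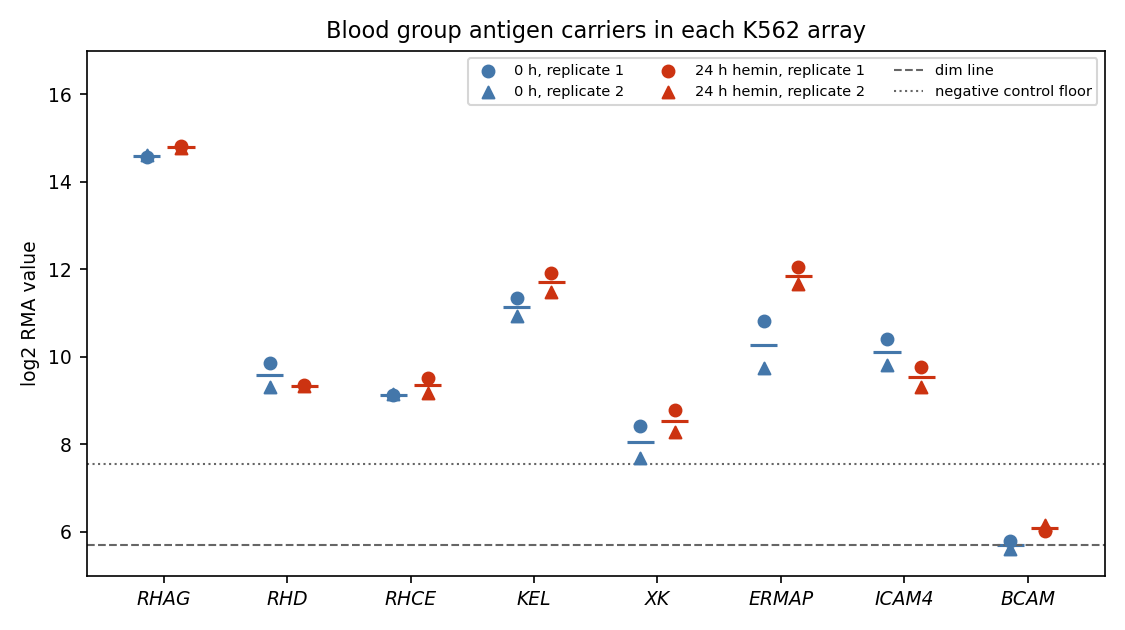
Log2 RMA value (vertical axis) of each carrier in each of the 4 arrays; circles are replicate 1, triangles replicate 2, short bars the mean of 2 arrays, blue 0 h and red 24 h of hemin. The dashed line is the dim line (5.70) and the dotted line the negative control floor (7.56): ERMAP had the widest gap between the time points, and BCAM lay under the dotted line in every array.

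Values are log2 RMA signals, background corrected and quantile normalized between arrays by the authors, and are compared only within a probe set, since different probe sets do not share a scale. A dim line was drawn at 5.70, below which 95% of 349 olfactory receptor probe sets had their mean, and a second floor at 7.56, placed in the same way over 612 negative control probe sets. Of the 8 measured carriers, 7 were above both lines in every array, and BCAM was above the dim line in 3 of 4 arrays. Of 12 measured erythroid markers, 11 were above the dim line in every array, among them the globins HBE1, HBZ, HBA1 and HBA2. At 0 h HBA1 read 17.01 and 16.88 and HBA2 17.01 and 16.89, so these 2 may not be separate measurements. The fetal globins HBG1 and HBG2 had no named probe set and were not measured. AHSP, the chaperone of alpha-globin, stayed under the dim line throughout and is named after its values were seen. Also above that line in every array were 2 of 8 megakaryocyte, 1 of 9 granulocyte and monocyte and 2 of 7 lymphocyte markers. The array medians lay between 6.10 and 6.24.

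Of the 8 carriers 0 were called at 24 h of hemin, a call being an adjusted p under 0.05 from limma after Benjamini-Hochberg correction across the 20893 probe sets. Among all probe sets 0.943% were called, 0.823% higher and 0.120% lower. Without the correction, at p under 0.05, limma put 1 of the 8 carriers, ERMAP, higher and 0 lower, where 6.28% of all probe sets were higher and 6.62% lower. Both arrays at 24 h stood above both at 0 h for 5 of the 8 carriers, namely RHAG, RHCE, KEL, ERMAP and BCAM, and below them for 1, ICAM4. Over all probe sets these shares were 18.8% and 24.9%, or 43.6% together. The fitted change was above 0 for 6 carriers and below 0 for RHD and ICAM4. Its median was 0.29 on the log2 scale, against -0.06 over all probe sets.

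ERMAP, the Scianna carrier with its immunoglobulin-like fold, had the largest difference of the 8. At 0 h it read 10.82 and 9.74 on the log2 scale, and at 24 h 12.05 and 11.67. Both arrays at 24 h were above both at 0 h, and the gap between the arrays at 0 h, 1.07, was the widest among the carriers at either time. The means were 10.28 ± 0.76 (SD, n = 2) and 11.86 ± 0.27 (SD, n = 2). The log2 change of 1.58 (standard error 0.40, 95% interval 0.68 to 2.48, adjusted p = 0.12 from limma) corresponds to 2.99-fold, with an interval from 1.60 to 5.59. It missed the threshold, and its size depended on the arrays at 0 h: the log2 change was 2.12 without replicate 1 and 1.04 without replicate 2 of 0 h. Of 13 alternative settings, 10 left ERMAP short of the threshold, among them the methods' own test, with adjusted p from limma up to 0.28, reached without replicate 1 of 24 h. The other 3 took it past, at an adjusted p of 0.037 from limma with a trend and robust variance model, 0.036 with the replicate number as a block and 0.048 without replicate 2 of 24 h.

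**Figure D2:**
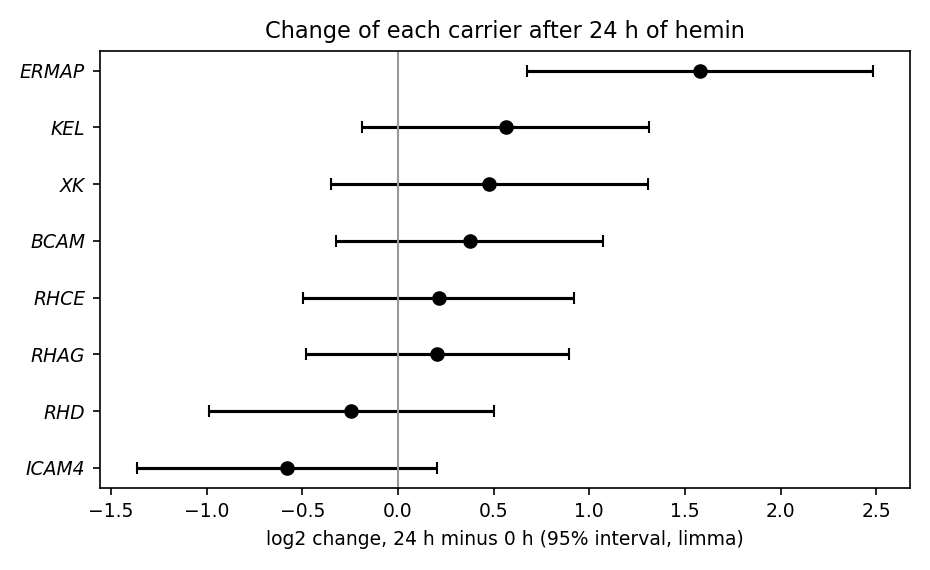
Log2 change from 0 h to 24 h of hemin for the 8 measured carriers (horizontal axis, points) with the 95% interval from limma (bars). The intervals are not adjusted for the number of probe sets. That of ERMAP, 0.68 to 2.48, lies above 0, and those of the other 7 include 0.

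The Rh complex was measured through its channel, its antigen carriers and its LW partner. RHAG, the subunit on which surface display of the Rh proteins depends, gave the tightest values of the group. It was at 14.58 and 14.61 at 0 h and at 14.82 and 14.79 at 24 h. The groups did not overlap, and the arrays within a group differed by only 0.03. The log2 change was 0.21 (standard error 0.31, 95% interval -0.48 to 0.89, adjusted p = 0.83 from limma), or 1.15-fold with an interval from 0.717 to 1.86. The standard error is mostly limma's shared spread: the methods' own test, which uses each probe set's spread alone, passed RHAG at its stated threshold and none of the other 7 carriers, against 9.24% of all probe sets, and after Benjamini-Hochberg adjustment it called 0 probe sets in all.

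RHD, which encodes the D antigen protein, was at 9.87 and 9.31 at 0 h and at 9.35 and 9.34 at 24 h. Both values at 24 h lay between those at 0 h, so the groups overlapped. Limma fitted a log2 change of -0.24 with a standard error of 0.33 (adjusted p = 0.81), which was 0.035 without replicate 1 of 0 h. RHCE, which encodes the protein of the C/c and E/e antigens, was at 9.12 and 9.16 at 0 h and at 9.53 and 9.18 at 24 h. Its lower array at 24 h was just above both arrays at 0 h. Limma fitted a log2 change of 0.21 with a standard error of 0.32 (adjusted p = 0.83), which was 0.04 without replicate 1 of 24 h. To ask whether the pair moved apart, the RHD value minus the RHCE value was taken within each array. It was 0.74 and 0.15 at 0 h and -0.18 and 0.16 at 24 h, and the groups overlapped. The mean difference shifted by -0.46 on the log2 scale (two-sided exact permutation p = 0.667, where 2 arrays against 2 cannot go below 0.333).

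ICAM4, the LW carrier and a ligand of leukocyte integrins, was the only carrier with both arrays at 24 h below both at 0 h. It was at 10.41 and 9.83 at 0 h and at 9.76 and 9.31 at 24 h. The closest values of the groups, 9.83 and 9.76, were nearer to each other than the arrays of either group. The log2 change was -0.58 (standard error 0.35, 95% interval -1.37 to 0.20, adjusted p = 0.53 from limma), and ran from -0.87 to -0.29 as each array was left out in turn. Its neighbour ICAM1, the adhesion receptor named here after its values were seen, had overlapping groups, with 10.21 and 9.81 at 0 h and 9.81 and 9.84 at 24 h.

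KEL and XK, whose products form the Kell complex, both had positive fitted changes. KEL was at 11.34 and 10.94 at 0 h and at 11.91 and 11.50 at 24 h. The groups did not overlap, but the gap between them was smaller than the gap within either. The log2 change was 0.56 (standard error 0.33, 95% interval -0.19 to 1.31, adjusted p = 0.53 from limma). XK was at 8.42 and 7.69 at 0 h and at 8.79 and 8.28 at 24 h. Here the groups overlapped, since the lower array at 24 h was under the higher one at 0 h. The log2 change was 0.48 (standard error 0.37, 95% interval -0.35 to 1.30, adjusted p = 0.64 from limma), and it was 0.84 without replicate 1 and 0.11 without replicate 2 of 0 h. VPS13A, the partner of XK, was at 7.05 and 7.24 at 0 h and at 7.43 and 6.83 at 24 h, and is named after its values were seen.

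BCAM, the Lutheran carrier, was at 5.80 and 5.62 at 0 h and at 6.02 and 6.15 at 24 h. The groups did not overlap, but 1 array at 0 h was under the dim line and all 4 were under the negative control floor. The fitted difference was 0.37 on the log2 scale with a standard error of 0.31, or 1.30-fold with a 95% interval from 0.800 to 2.10 (adjusted p = 0.67 from limma), in values that are not clearly above background.

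Over the 8 carriers the standard errors ran from 0.31 to 0.40, so that the 95% intervals reached from 0.69 to 0.90 on the log2 scale to either side of the fitted change. With 2 arrays per time point, limma left the direction open for 7 of the 8 carriers, whose intervals include 0. These intervals are not adjusted for the number of probe sets. ERMAP, whose interval lies above 0, had an adjusted p of 0.12 from limma. Replicate 1 was above replicate 2 in 6 of the 8 carriers at 0 h and in 7 of the 8 at 24 h, and in ERMAP, KEL, XK and ICAM4 by 0.375 or more at each time. Over all probe sets replicate 1 was the higher array in 50.7% at 0 h and 45.5% at 24 h. ALAS2, the erythroid heme synthesis enzyme singled out after its values were seen, had the same order by a wide gap. It was at 12.59 and 11.23 at 0 h and at 12.63 and 11.24 at 24 h. The erythroid markers did not share this order at both times: of 12 measured, replicate 1 was higher in 10 at 0 h and in 4 at 24 h.

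**Figure D3:**
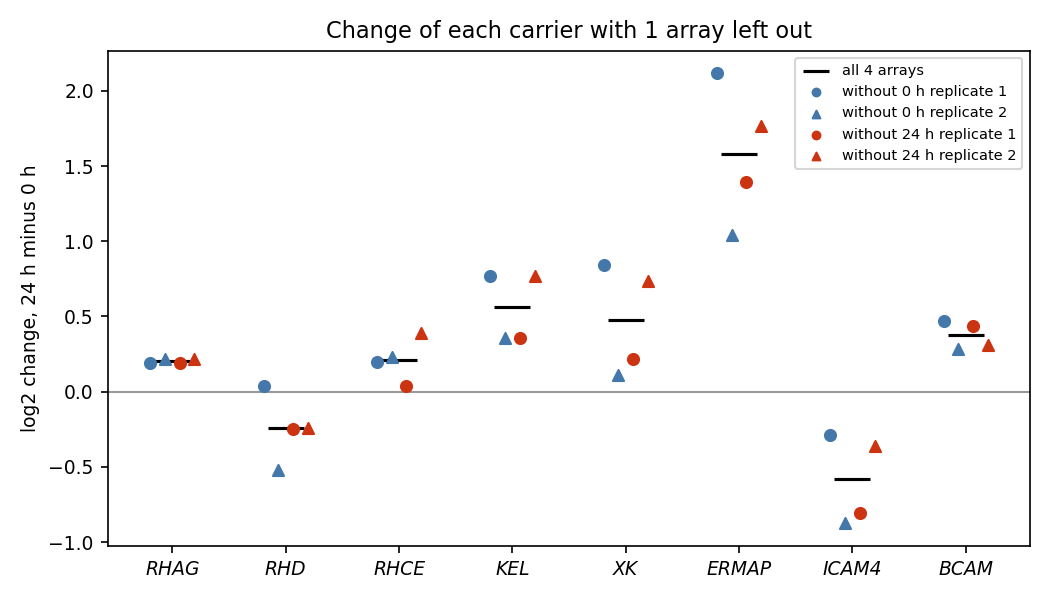
Log2 change from 0 h to 24 h (vertical axis) of each carrier with all 4 arrays (bars) and with each array left out in turn (blue, an array at 0 h; red, an array at 24 h; circles, replicate 1; triangles, replicate 2). ERMAP ranged from 1.04 to 2.12, RHAG stayed between 0.19 and 0.22, and RHD crossed 0 without replicate 1 of 0 h.

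The genes around these carriers were read from lists of related genes. Of 28 other carriers of blood group antigens, 24 had a named probe set, of which 1 rose and 0 fell by limma's call. Among all probe sets 0.823% rose and 0.120% fell by that call. The riser was ABCB6, the porphyrin transporter that carries the Lan antigen. It was at 6.25 and 6.26 at 0 h and at 9.05 and 8.30 at 24 h, 2.42 apart on the log2 scale with a standard error of 0.35 (adjusted p = 0.014 from limma). The call was lost without replicate 1 or without replicate 2 of 0 h, where the log2 change was 2.41 and 2.42. Both arrays at 0 h were under the negative control floor, and the mean at 24 h was 2.16-fold above that floor. CD59, a complement regulator named after its values were seen, was at 12.63 and 12.16 at 0 h and at 10.86 and 10.80 at 24 h (adjusted p = 0.063 from limma). The other carriers had a median log2 change of -0.09, and at p under 0.05 without the correction 3 of them were lower and 1 higher. Of all probe sets 6.62% were lower and 6.28% higher at that threshold. SLC4A1, the band 3 anion exchanger that carries the Diego antigens and also named after its values were seen, was above the dim line in 1 of 4 arrays.

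Of 11 genes behind carbohydrate blood group antigens, enzymes counted with the chaperone C1GALT1C1, all had a probe set and none was called by limma. None passed an unadjusted p under 0.05 either, and 5 stayed under the dim line throughout. The methods' own test gave 1, FUT1, named after its values were seen, which was above the negative control floor in 0 of 4 arrays. GCNT2, the branching enzyme behind the I antigen, was under the dim line in 1 array at 0 h, at 4.77 against 5.80 in the other, and read 5.90 and 6.01 at 24 h (adjusted p = 0.52 from limma). All 4 values were under the negative control floor, so the size of its difference is not measured. Of 9 measured partners of the carriers in the membrane or outside the cell, 0 were called by limma. In limma 1 was lower at an unadjusted p under 0.05 (6.62% of all probe sets), and 1 passed the methods' own test (9.24%). The lower one was CD47, which sits in the Rh complex and signals to macrophages. It was at 9.79 and 9.99 at 0 h and at 8.88 and 8.56 at 24 h (log2 change -1.17, adjusted p = 0.14 from limma).

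Of 16 measured paralogs, 0 were called by limma. At an unadjusted p under 0.05 limma put 1 lower (6.62% of all probe sets), and 1 passed the methods' own test (9.24%). The lower one was MME, a membrane endopeptidase related to Kell (adjusted p = 0.19 from limma), but none of its 4 arrays reached the dim line, so it has no measured difference. ICAM5, which passed the methods' own test and is named after its values were seen, reached that line in 0 of 4 arrays. RHBG and RHCG, the Rh glycoproteins of kidney and other epithelia, were also below the dim line throughout. RHAG was thus the only measured Rh glycoprotein above the dim line, in 4 of 4 arrays.

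**Figure D4:**
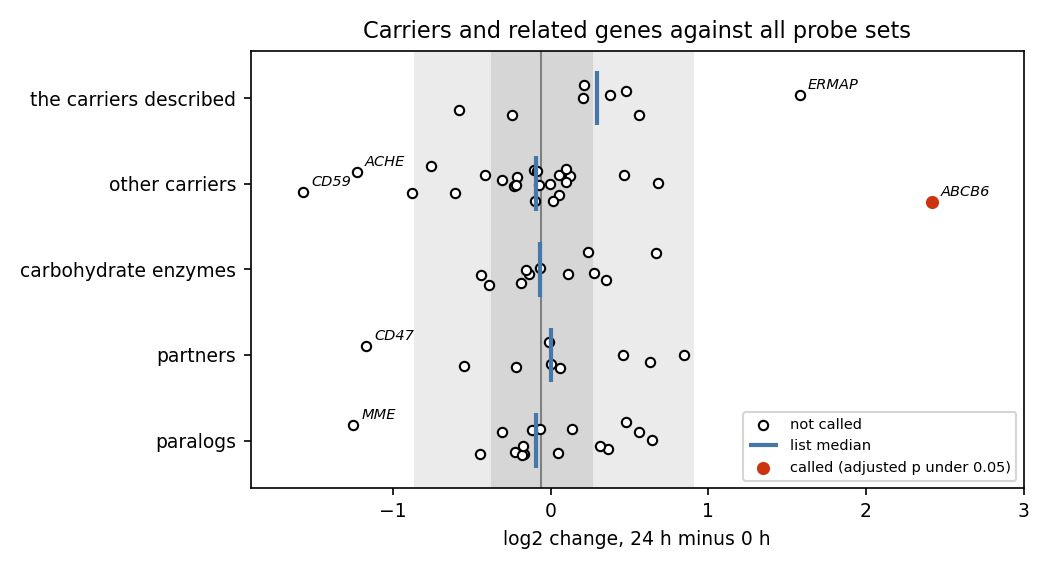
Log2 change from 0 h to 24 h (horizontal axis) for the 8 carriers and 4 lists of related genes, 1 point a gene; filled red points were called by limma, blue bars are list medians, and genes past 1 in either direction are named. Shading shows all probe sets from the 25th to the 75th percentile (-0.37 to 0.26) and from the 5th to the 95th (-0.86 to 0.90), and of the 8 carriers ERMAP alone lies outside the wider band.

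Markers of other cell types were read beside these values as sums of the linear signal over each list. The erythroid sum, which a few globins carry, was 387415 and 427362 at 0 h and 468675 and 567850 at 24 h. Its 12 genes were split, with 6 fitted changes above 0 and 6 below and a median of -0.04 on the log2 scale. The 1 called by limma was NFE2, an erythroid transcription factor that fell. It was at 10.97 and 11.05 at 0 h and at 9.23 and 9.42 at 24 h (adjusted p = 0.043 from limma). Its call was lost without replicate 1 (adjusted p = 0.15) or replicate 2 (adjusted p = 0.16) of 0 h and without replicate 1 of 24 h (adjusted p = 0.12). The megakaryocyte sum was 594 to 727 at 0 h and 442 to 522 at 24 h, the lymphocyte sum 433 to 500 and 298 to 419, and the granulocyte and monocyte sum 3248 to 5400 and 2853 to 4769. The erythroid, megakaryocyte and lymphocyte sums did not overlap between the time points. Of the 8 megakaryocyte and 7 lymphocyte markers, however, 0 were above the negative control floor in every array. The size of the difference in the megakaryocyte and lymphocyte sums is therefore not measured. Of the 9 granulocyte and monocyte markers 1 was above that floor in every array. This was LYZ, named after its values were seen, which carries most of its list's sum. It was at 12.32 and 11.56 at 0 h and at 12.15 and 11.33 at 24 h. The part of any of these sums in the values of the carriers was not tested. GATA1, named after its values were seen, was at 14.09 and 13.87 at 0 h and at 12.96 and 12.92 at 24 h (adjusted p = 0.18 from limma), and its part in them was not tested either. In such bulk RNA, fewer cells of a type and less RNA per cell cannot be told apart.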

How the data were processed

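Human Clariom S arrays, 2 per time point and 4 in all, held total RNA from K562 cells, untreated (0 h) or given 50 µM hemin for 24 h, and were grouped by the sample labels. The deposited values are log2 per probe set and array, which by the methods were made in Affymetrix Expression Console with RMA (background correction, log2 and quantile normalization), with versions and the build of the array not given in the sources used here.

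Of the 24351 rows, the 20893 transcript probe sets were tested without further scaling, and 2903 array controls and 555 unmapped transcripts were not used. Symbols came from GEO's platform annotation and RefSeq (GRCh38.p14): 17705 probe sets had 1 symbol, 0 had several and 3188 are unnamed here. The time points were compared with limma (3.58.1, under R 4.3.3) by lmFit and eBayes, as 24 h minus 0 h in two-sided tests without covariates, and p-values were adjusted across all probe sets (Benjamini-Hochberg, threshold 0.05); the code was tested on simulated data. The number of arrays limits the precision. Levels of different probe sets are not compared as amounts; RHD minus RHCE is followed only for its shift across arrays, and marker lists are summed only to set arrays side by side. The members and the gene lists were chosen with earlier results of these data known, so no list was tested as a set. All 10 members are named, with RHBG and RHCG as close relatives, and in each list of related genes the called genes or the 1 with the largest fitted change; other genes are said to be named after their values were seen. Alternatives were other scalings, filters, thresholds and variance models, weights per array, a replicate block, the methods' own test (an ANOVA per probe set) and leaving out each array. No member had a further probe set, so that alternative gave no value.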

Additional observations from a re-analysis of the deposited data

How the results depend on the processing

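With 2 arrays per time point, no carrier had an adjusted p under 0.05 in limma, and all 8 were above the dim line in their means; 7 were above the negative control floor and 1 above the highest olfactory receptor mean. The number of carriers called was 1 with the trend and robust options of eBayes, 1 with the replicate block, each time ERMAP, and 1 by the methods' own test at its stated threshold, which was RHAG. As each array was left out in turn it ran from 0 to 1. RHD had a fitted log2 change of -0.24 with all arrays, which ran from -0.52 to 0.035 as arrays were left out and was above 0 without replicate 1 of 0 h; no other carrier changed sign under any setting, and the cause was not tested. The median log2 change of the carriers ran from 0.21 to 0.35 as arrays were left out.

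The number of other blood group carriers called, 1 in the main setting, was 2 at an adjusted p under 0.1, 2 among probe sets above the dim line, 2 with 1 probe set per gene, 2 with the trend and robust model and 2 with the replicate block, 0 and 3 by the methods' own test after adjustment and at its stated threshold, and 0 to 2 as arrays were left out. At that stated threshold 1 carbohydrate enzyme, 1 partner and 1 paralog passed. Over all probe sets the count of 197 became 418 at an adjusted p under 0.1, 546 with the trend and robust model, 429 with the replicate block, 0 and 1930 by the methods' own test, and 27 to 392 as arrays were left out. The deviations of arrays with the same replicate number correlated at r = -0.003 across all probe sets, which cannot decide whether the arrays are paired for single genes. Replicate 1 was the higher array in 6 of the 8 carriers at 0 h and in 7 at 24 h, and pairing in them was not tested. Among the 8 carriers described, the replicate block changed no call but that of ERMAP.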
